A study of Saccharomyces cerevisiae with 4 samples.

Results

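The mitochondrial ribosomal protein genes of the budding yeast Saccharomyces cerevisiae were followed in cells exposed to Congo red, a dye that attaches to the chitin and glucan of the cell wall and weakens it. The members are all genes whose symbol in the array's annotation begins with MRPL, MRPS, MRP or RSM and ends in a number. They were 65 genes on 130 spots, of 5539 named genes on 11138 named spots and 12800 spots in all. The name pattern alone, and not a threshold on any measured value, decides which genes belong. Of the 65, 37 encode proteins of the large subunit and 27 are named for the small subunit. The remaining one, MRP8, matches the name pattern, but its product is not known as a ribosomal protein.

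The data were 4 2-colour microarrays of 1 strain, BY4741, a common haploid laboratory yeast that lacks HIS3, LEU2, MET17 and URA3, all of which both RNAs share. A culture in rich medium (YEPD) at 24 °C was split, 1 portion received Congo red at 30 µg/ml and its sister portion stayed untreated, and total RNA of both was taken after 2 h. Each array carried both RNAs, and the RNA of treated cells was in channel 2 on arrays 1 and 3, while arrays 2 and 4 had it in channel 1. Whether the arrays came from separate cultures is not said in the labels, so a p-value here covers only the spread between arrays, which may be technical.

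The mitochondrial ribosome translates the few messages of mitochondrial DNA, mainly subunits of the respiratory chain and of ATP synthase. Almost all of its proteins are encoded in the nucleus, made on cytosolic ribosomes and imported, while its RNAs and the protein Var1 come from mitochondrial DNA. Many of the proteins have a counterpart in the bacterial ribosome, and others are found only in mitochondria. In yeast this gene family is known to be expressed together with growth and respiration, and its messages are known targets of the RNA-binding protein Puf3.

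Values are log2 ratios, shifted so that the median spot of each array is 0. They are taken to be Congo red over untreated, so 1 is a 2-fold higher level with Congo red. The labels state no direction for the ratio. It is likely to run by treatment and not by channel, because 7 known cell wall stress genes were above 0 on all 4 arrays, with list medians of 1.96, 1.52, 2.11 and 2.19 on arrays 1 to 4. SLT2, also planned as such a marker, is not among the 7, and its value is not given here. Over all genes, arrays 1 and 3 had a Pearson correlation of 0.30 and arrays 2 and 4 one of 0.08, while the pairs of opposite channel assignment lay between -0.06 and -0.02. Arrays 1 to 4 held values for 11931, 11609, 12297 and 12586 spots, and the number of arrays limits the precision. The table used has ratios without intensities, so a dim spot cannot be told from a bright one. The ratio of 2 RNAs of 1 strain cannot show whether a cell type or strain marker is present.

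None of the 65 genes passed the limma test with Benjamini-Hochberg adjustment over all 5489 genes tested, where the threshold was 0.05. Over all those genes 0.0911% passed, and all of them were higher with Congo red. The smallest adjusted p among the members was 0.65. At an unadjusted p under 0.05 there were 0 members, against 7.74% of all genes tested. The members' mean log2 ratios had a median of -0.09, beside -0.01 over all genes tested. It was -0.01 without array 1, -0.15 without array 2, -0.03 without array 3 and -0.14 without array 4. A ratio of bulk RNA cannot tell less RNA per cell from fewer cells that make it. In the mean 45 members were below 0 and 20 above, or 69.2% below, beside 52.0% of all genes tested.

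**Figure D1:**
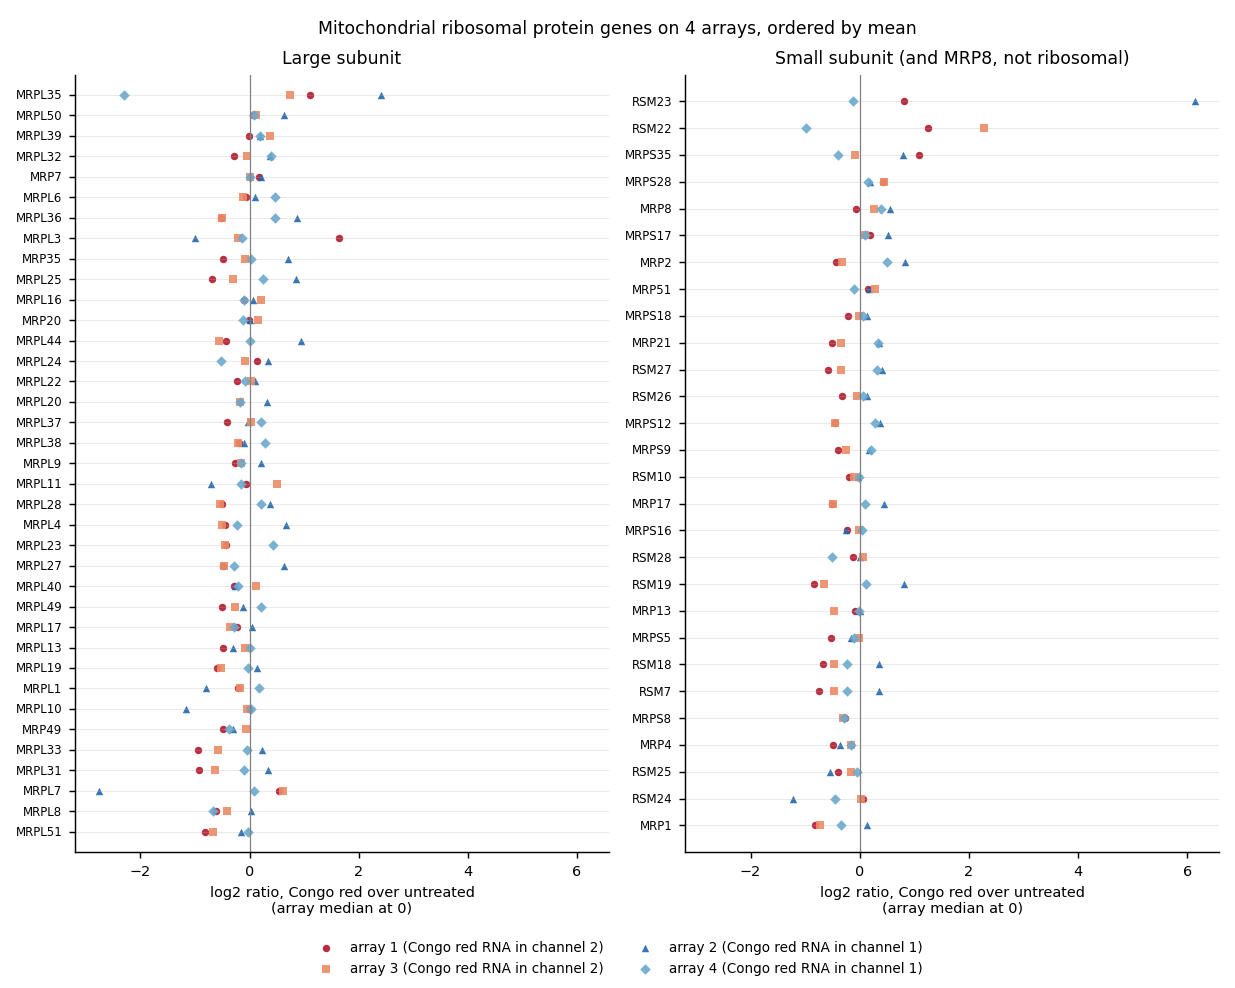
Log2 ratio of Congo red over untreated for each mitochondrial ribosomal protein gene (rows, ordered by mean within each panel) on each of the 4 arrays (points; colour and shape give the array). The means of 63 genes lie within 0.5 of 0, though values on single arrays often lie farther out. Red and orange points (Congo red RNA in channel 2) often lie left of blue ones (channel 1). RSM23 on array 2 stands farthest out at 6.15.

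The spread between arrays, which may be technical, was small enough to bound the mean of most members. The fit behind these intervals has no channel term. For 58 of the 65 genes the 95% interval of the mean lay within a 2-fold change in either direction, a share of 89.2%, beside 67.8% of all genes tested. The median standard deviation over arrays was 0.33 for the members and 0.42 for all genes tested. MRP20, the counterpart of bacterial L23 at the exit of the peptide tunnel, was at -0.01, 0.00, 0.16 and -0.12 on arrays 1 to 4. Its mean was 0.01 ± 0.13 (SE, n = 4), with an interval from -0.33 to 0.35. RSM10, the S10 counterpart, was at -0.20, -0.03, -0.11 and -0.02, with a mean of -0.09 ± 0.13 and an interval from -0.42 to 0.24. MRP7, the L27 counterpart near the catalytic centre, was at 0.17, 0.21, 0.01 and 0.01, with a mean of 0.10 ± 0.13. These 3 genes had the smallest standard errors of the family, and their spot means were close to untreated on all 4 arrays. Single spots agreed less, at -0.24 and 0.23 for MRP20 on array 1. For MRP7 they were at -0.18 and 0.61 on array 2.

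The intervals of the other 7 members reached beyond 2-fold, and these were RSM23, RSM22, MRPL35, MRPL7, MRPL3, MRPS35 and RSM24. RSM23 encodes the small subunit protein related to human DAP3, a GTP-binding protein. It was at 0.81, 6.15 and -0.13 on arrays 1, 2 and 4 and had no value on array 3. The value on array 2 came from 1 spot, and the mean of 2.27 ± 1.40 (SE, n = 3) had an interval from -1.61 to 6.16, with a limma adjusted p = 0.73. RSM22, which encodes a methyltransferase-like protein that acts in small subunit assembly, was at 1.25, 2.27 and -0.98 on arrays 1, 3 and 4 and had no value on array 2. The value on array 3 came from 1 spot. Its mean was 0.85 ± 0.70 (SE, n = 3, limma adjusted p = 0.76), with both channel 2 arrays high and array 4 low. MRPL35, a large subunit protein without a bacterial counterpart, ranged most among genes with 4 values, at 1.11, 2.41, 0.75 and -2.30. The value on array 2 came from 1 spot. The mean was 0.49 ± 0.78 (SE, n = 4), and array 4 alone was below 0.

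**Figure D2:**
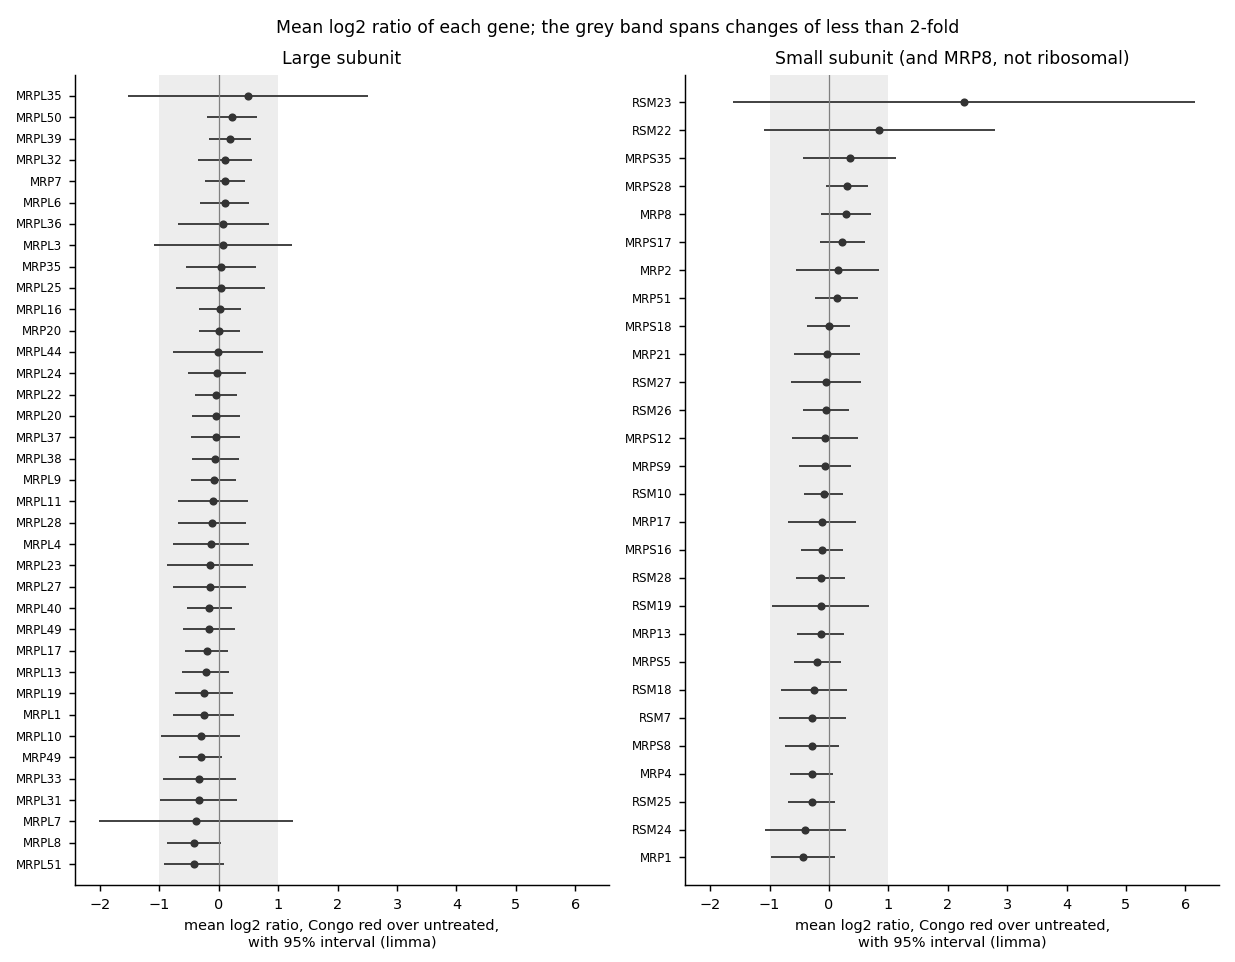
Mean log2 ratio of each gene with its 95% interval from limma (horizontal axis; n = 4 arrays, or 3 for RSM23, RSM22, MRPS8 and MRPL23), split by subunit; the grey band marks changes under 2-fold. Intervals of 58 genes lie inside the band, and those of RSM23, RSM22, MRPL35 and MRPL7 are the widest.

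Duplicate spots gave a second reading of each value. Each member was printed as 2 spots, and the median distance between them was 0.12, 0.26, 0.14 and 0.11 log2 units on arrays 1 to 4, beside 0.16, 0.25, 0.16 and 0.15 for all genes printed as pairs. Pairs more than 1 log2 unit apart numbered 2 of 65, 6 of 60, 2 of 63 and 2 of 65, and they fell on 8 genes. Over all genes printed as pairs the shares were 9.55%, 17.95%, 8.85% and 5.95%. MRPL3, whose protein carries a fold related to ribonuclease III, had spots at 0.67 and 2.61 on array 1, -1.72 and -0.27 on array 2, and 0.69 and -1.11 on array 3. MRPL10, the L15 counterpart, had spots at -0.14 and -2.20 on array 2, and the gene's value there was -1.17. On the other arrays MRPL10 lay between -0.05 and 0.02. RSM24, a small subunit protein without a bacterial counterpart, had spots at -0.09 and -2.37 on array 2, and its gene values were 0.05, -1.23, 0.03 and -0.45 on arrays 1 to 4. MRPL7, the L5 counterpart, was low in both spots of array 2, at -1.88 and -3.63, and above 0 on the other 3 arrays.

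**Figure D3:**
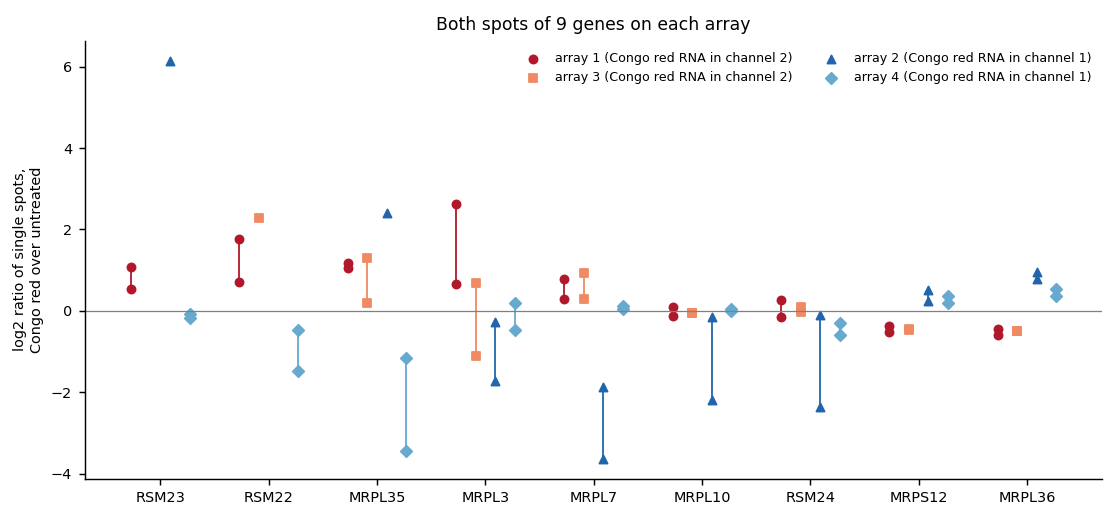
Log2 ratio of both spots (points joined by a line) on each array for 7 genes with wide intervals or discordant spots and, at the right, for MRPS12 and MRPL36. RSM23, RSM22, MRPL35, MRPL3, MRPL7, MRPL10 and RSM24 differ between spots or arrays by more than 1 log2 unit. MRPS12 and MRPL36 have close spots and differ between the channel assignments, and MRPL36 too spans more than 1 log2 unit between arrays.

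Large subunit genes had a median mean log2 ratio of -0.09, with 25 of 37 below 0. The lowest were MRPL51, a protein found only in mitochondria, at -0.81, -0.16, -0.68 and -0.02 on arrays 1 to 4, and MRPL8, the L17 counterpart, at -0.61, 0.03, -0.41 and -0.67. Their means were -0.42 ± 0.19 and -0.41 ± 0.18 (SE, n = 4), with limma adjusted p-values of 0.68 and 0.65. MRPL51 was low on the channel 2 arrays and near 0 on array 4, whereas MRPL8 was near 0 on array 2 alone. MRPL31, also specific to mitochondria, was at -0.93, 0.33, -0.64 and -0.10, with a mean of -0.33 ± 0.25, and MRP49 had a mean of -0.31 ± 0.14. MRPL33, the L30 counterpart, was at -0.94, 0.23, -0.57 and -0.04. The means of MRPL22 (L22), MRPL4 (L29) and MRPL40 (L24) were -0.05 ± 0.14, -0.13 ± 0.25 and -0.16 ± 0.15. MRPL32, whose protein must be cleaved by a mitochondrial protease before assembly, was at 0.11 ± 0.18. MRPL39, the L33 counterpart and the shortest gene of the family, was at -0.00, 0.19, 0.38 and 0.19, with a mean of 0.19 ± 0.14. MRPL50, the L9 counterpart, was above 0 on each array, at 0.07, 0.64, 0.12 and 0.08.

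Small subunit genes also had a median of -0.09, with 20 of 27 below 0. The lowest of all members was MRP1, related to superoxide dismutases, at -0.82, 0.12, -0.73 and -0.34 on arrays 1 to 4. Its mean was -0.44 ± 0.21 (SE, n = 4), and the interval ran from -0.98 to 0.10. Its relative RSM26 was at -0.05 ± 0.15. MRP4, the S2 counterpart, was below 0 on each array, at -0.48, -0.36, -0.16 and -0.15, as was RSM25, at -0.40, -0.54, -0.17 and -0.06. The spots of RSM25 were at -0.01 and -1.07 on array 2, and at -0.18 and 0.07 on array 4. MRPS28, the S15 counterpart, was above 0 on each array, at 0.42, 0.19, 0.45 and 0.15, with a mean of 0.30 ± 0.14 and a limma adjusted p = 0.67. MRPS17, the S17 counterpart, was at 0.19, 0.51, 0.10 and 0.10. The S7 and S18 counterparts, RSM7 and RSM18, had similar profiles, at -0.75, 0.34, -0.48 and -0.23 for RSM7 and at -0.67, 0.36, -0.48 and -0.23 for RSM18. In both of these genes array 2 alone was above 0. MRPS35 was at 1.09, 0.80, -0.08 and -0.41, above 0 on arrays 1 and 2 and below it on arrays 3 and 4. MRP51, a protein known to act with messages of cytochrome oxidase subunits, was at 0.13 ± 0.14. MRP8, outside the ribosome, was at -0.06, 0.56, 0.26 and 0.40, with a mean of 0.29 ± 0.16.

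Few members had 1 sign on all 4 arrays. Of the 61 members with 4 values, 6 were below 0 throughout, beside 8.65% of all genes with 4 values, and these were MRP4, MRP49, MRPL51, MRPS5, RSM10 and RSM25. Above 0 throughout were 4 members, beside 9.54%, namely MRP7, MRPL50, MRPS17 and MRPS28. Both counts are close to those shares of all genes. The signs are those of spot means. The first spot of MRP7 was below 0 on each array, at -0.005, -0.18, -0.04 and -0.07, and the second was above 0 on each. Among the members below 0 throughout, only MRP4 had both spots below 0 on each array. Proteins with a bacterial counterpart and those found only in mitochondria had similar medians, -0.09 over 41 genes and -0.13 over 22 genes. In the first class 28 were below 0 in the mean, and in the second 17.

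The array medians of the family were lower on both channel 2 arrays than on both channel 1 arrays, though that of array 4 was also slightly below 0. They were -0.28 and -0.16 on arrays 1 and 3, where Congo red RNA was in channel 2, and 0.17 and -0.02 on arrays 2 and 4, where it was in channel 1. On arrays 1 and 3, 52 of 65 and 46 of 64 members were below 0, against 18 of 62 and 34 of 65 on arrays 2 and 4. The members' own values also ran together within the channel 2 arrays, with a Spearman's rho of 0.76 over 64 genes between arrays 1 and 3. Between arrays 2 and 4 it was 0.19 over 62 genes, and the pairs of opposite assignment lay between -0.28 and -0.10. Pearson's r over the same genes was 0.69 for arrays 1 and 3, but -0.17 for arrays 2 and 4, and it was 0.13 for arrays 1 and 2, of opposite assignment. The other 3 pairs of opposite assignment had an r between -0.41 and -0.20. Apart from arrays 1 and 3, the members' correlations thus did not follow the channel by both measures. These correlations are across genes, which are not independent replicates, and arrays 1 and 3 share the channel.

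In the limma fit with a term for the channel, no member passed after Benjamini-Hochberg adjustment, and the share of all genes was 0.0%. The members' median difference, arrays 1 and 3 minus arrays 2 and 4, was -0.24, beside 0.05 over all genes tested. At an unadjusted p under 0.05, 13 members were lower on arrays 1 and 3, beside 9.25% of all genes, and 1 was higher, beside 7.36%. The count of 13 was 0 without array 1 or without array 3, 6 without array 2 and 20 without array 4. Of the 61 genes with 4 values, 31 had both channel 2 arrays below both channel 1 arrays, or 50.8%, beside 29.5% of all genes with 4 values. The opposite order was found in 4 members, beside 28.2%. In 16 members the sign itself turned, below 0 on arrays 1 and 3 and above 0 on arrays 2 and 4, beside 13.5% of all genes. Within the channel 2 arrays alone the members' means had a median of -0.21, and within the channel 1 arrays alone 0.06, so the 2 assignments did not give 1 direction for the family. The part of the channel in the members' ratios was not tested apart from this fit, which has 4 arrays.

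MRPL36, the L31 counterpart, was at -0.52 and -0.50 on arrays 1 and 3 and at 0.87 and 0.46 on arrays 2 and 4. Its channel difference was -1.18 ± 0.25 (SE, n = 4, limma adjusted p = 0.25), while its mean over the arrays was 0.08 ± 0.30. MRP2, the S14 counterpart, was at -0.44 and -0.33 on arrays 1 and 3 and at 0.84 and 0.51 on arrays 2 and 4, a difference of -1.05 ± 0.23. RSM19, the S19 counterpart, was at -0.83 and -0.65 against 0.81 and 0.12, a difference of -1.20 ± 0.33. In these 3 genes the assignments did not overlap, and a mean near 0 arose from values of opposite sign. MRPS12, the S12 counterpart of the decoding site, was at -0.45 and -0.46 on arrays 1 and 3 and at 0.37 and 0.28 on arrays 2 and 4. MRPS12 and RSM19 are adjacent in the RefSeq gene table of assembly R64, the only neighbouring members there. MRPL28, RSM27, MRP21, MRP17 and MRPL25 turned sign in the same way, with differences from -1.04 for MRPL25 to -0.77 for MRP17 and MRP21.

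Of the 65 members, 19 had a positive difference, beside 2928 of all 5489 genes tested. The 4 largest among the members belonged to genes with wide intervals. RSM22 had the largest positive difference, 2.74 ± 0.61 (SE, n = 3, limma adjusted p = 0.27), with array 4 as its only channel 1 value and a single spot behind array 3. MRPL7 followed at 1.91 ± 1.07, MRPL3 at 1.28 ± 0.78 and RSM24 at 0.88 ± 0.35 (SE, n = 4 each). RSM23 had the most negative difference, -2.20 ± 3.35, which rests on 3 values. MRPL11, the L10 counterpart of the ribosomal stalk, was at -0.07 and 0.50 on arrays 1 and 3 and at -0.70 and -0.15 on arrays 2 and 4. MRPS28 was higher on arrays 1 and 3 by 0.27 ± 0.20, though it was above 0 on all 4.

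Gene length went with the channel difference. Lengths came from the RefSeq gene table, which held all 65 members, and 96.9% of the lengths of tested genes were multiples of 3, so they are coding lengths for nearly all genes. Over the 65 members, length and channel difference had a Spearman's rho of 0.56, and over all genes tested with a length the rho was 0.22 across 5484 genes. Over members it was 0.39 without array 4. The genes share the 4 arrays, and no p is given. The 22 shortest members, of 213 to 477 bp, had a median difference of -0.65. Of the 21 with 4 values, 16 lay lower on both channel 2 arrays, or 76.2%. That share was 58.4% for other genes of 78 to 477 bp with 4 values, and 29.5% for all genes with 4 values. The 21 members of 486 to 810 bp had a median of -0.24, and the 22 members of 837 to 1887 bp one of 0.14. Other genes of 78 to 477, 480 to 825 and 828 to 14733 bp had medians of -0.46, -0.19 and 0.15. These classes held 446, 948 and 4025 genes. The short one includes cytosolic ribosomal protein genes, and without them its median was -0.42 over 424 genes. The long class is not matched in length, with a median of 967.5 bp for the members and 1572 bp for the other genes. The short members' array medians were -0.49 and -0.40 on arrays 1 and 3 and 0.37 and 0.06 on arrays 2 and 4. The short genes outside the family had -0.31 and -0.23 on arrays 1 and 3 and 0.19 and 0.15 on arrays 2 and 4. Members were shorter than most genes, with a median of 699 bp beside 1269 bp over all genes tested.

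**Figure D4:**
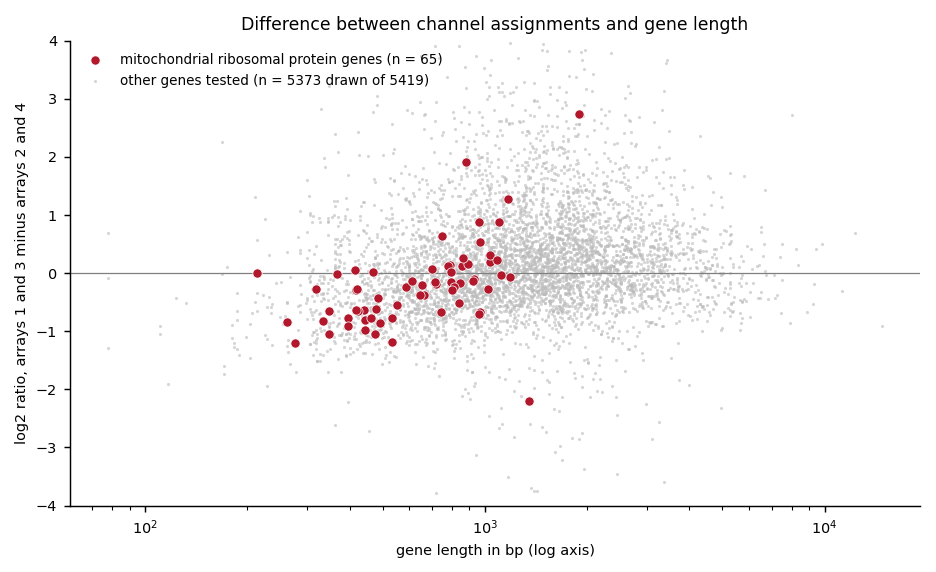
Difference in log2 ratio between the channel assignments, arrays 1 and 3 minus arrays 2 and 4 (vertical axis), against gene length in bp (log axis), for the 65 mitochondrial ribosomal protein genes (red) and 5373 of 5419 other genes with a length (grey; the remainder lie beyond the axis limits). Short members lie mostly below 0 and long members around or above it, as do the grey points.

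Over the mean of the 4 arrays, length and the log2 ratio of the members had a Spearman's rho of 0.09. The 3 length classes had median means of -0.11, -0.05 and -0.14, and 17 of 22, 14 of 21 and 14 of 22 members were below 0. All 22 short and all 21 middle members had intervals within a 2-fold change, while 15 of the 22 long ones did, or 68.2%. Among the other genes of the short, middle and long classes the shares were 72.6%, 71.3% and 66.1%. The long members were thus near the share of other long genes.

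Mitoribosomal genes with other symbols gave values much like the members'. Of 13 tested genes, 0 passed, 11 were below 0 in the mean, and the median was -0.12. PET123, of the small subunit, was below 0 on each array, at -0.33, -0.58, -0.23 and -0.29, with a mean of -0.36 ± 0.14 (SE, n = 4, limma adjusted p = 0.64). NAM9, the S4 counterpart, was at 0.42, -4.0, 0.35 and -0.14, with array 2 alone far below 0. MHR1 was at -0.18 ± 0.20. MRX14, the L34 counterpart, split by channel like short members, at -0.94 and -0.65 on arrays 1 and 3 and at 0.63 and 0.10 on arrays 2 and 4. RML2, the L2 counterpart, was at 0.49 and 0.41 on arrays 1 and 3 and at -0.50 and -0.28 on arrays 2 and 4.

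Genes that act with the mitochondrial ribosome had 0 calls in each list. Translation factors had a median of 0.03 over 13 genes, tRNA synthetases 0.05 over 13, translational activators 0.05 over 18, assembly and membrane anchoring genes -0.06 over 10, and genes of mitochondrial DNA expression -0.07 over 8. Among them RRF1, of the ribosome recycling factor, was at 5.28, 6.0, 0.28 and -0.26, with a mean of 2.82 ± 1.28 (SE, n = 4, limma adjusted p = 0.66). It was high on arrays 1 and 2 and near 0 on arrays 3 and 4. PET494, an activator for a cytochrome oxidase subunit, was below 0 on all arrays, at -1.53, -0.68, -0.40 and -1.37, with a limma adjusted p = 0.49. MSY1, a tyrosyl-tRNA synthetase, was at 0.54 ± 0.20, and MTF1, the mitochondrial transcription factor, was at 0.59 ± 0.19. MDM38, which binds ribosomes at the inner membrane, was at 0.35 ± 0.15. In contrast to the members, translation factors and tRNA synthetases had array medians of 0.57 and 0.59 on array 1, and -0.34 and -0.20 on array 4. Their genes were longer, with median lengths of 1314 and 1611 bp beside 699 bp for the members. Their median standard deviations over arrays were 1.01 and 0.65, beside 0.33. No test of the differences between lists was made, nor of the part of length or spread in them.

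Many proteins made on the mitochondrial ribosome are joined in the membrane by partners from the nucleus. The list of nuclear respiratory chain and ATP synthase genes was also without a call, though not all of its genes encode such partners. The 36 respiratory chain and ATP synthase genes had a median of 0.00, with 17 below 0. ATP17, an ATP synthase subunit, was above 0 on all arrays, at 0.23, 0.50, 0.71 and 0.72, with a mean of 0.54 ± 0.15 (SE, n = 4, limma adjusted p = 0.56). NDE1, an NADH dehydrogenase facing the cytosol, was at 0.69 ± 0.25, and SDH1, of succinate dehydrogenase, at 0.56 ± 0.21. The list's array medians were -0.26 and -0.22 on arrays 1 and 3 and 0.16 and 0.29 on arrays 2 and 4. Among regulators of mitochondrial genes, HAP2 was at -0.37 ± 0.14 and PUF3 at 0.81 ± 0.44, with limma adjusted p-values of 0.64 and 0.70. PUF3 was at 1.79, -0.70, 1.33 and 0.83 on arrays 1 to 4, below 0 on array 2 alone.

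Cytosolic ribosomal protein genes split in the same direction, with larger median differences, and no test between the lists was made. Their 78 large subunit genes had a median channel difference of -0.84 and their 54 small subunit genes one of -0.88, beside -0.24 for the mitochondrial family. On arrays 1 and 3 the mitochondrial medians of -0.28 and -0.16 stood beside -0.81 and -0.63 for the cytosolic large subunit and -0.73 and -0.64 for the cytosolic small subunit. On arrays 2 and 4 the mitochondrial medians of 0.17 and -0.02 stood beside 0.14 and 0.13, and 0.15 and 0.17. In the mean over arrays 45 of 65 mitochondrial genes were below 0, beside 75 of 78 and 52 of 54 cytosolic ones, and no gene of the 3 lists passed the test.

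**Figure D5:**
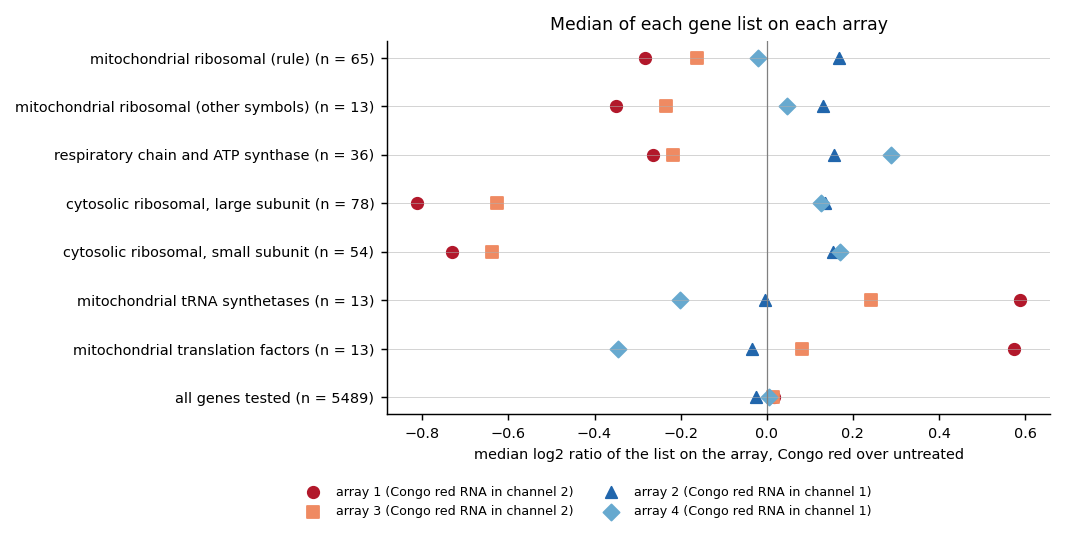
Median log2 ratio of 8 gene lists (rows) on each array (points), with red and orange points for arrays with Congo red RNA in channel 2 and blue ones for channel 1. The mitochondrial ribosomal lists lie below 0 on arrays 1 and 3, less far than the cytosolic ribosomal lists, while all genes tested lie near 0.

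The median profile of the 61 members with 4 values was -0.29, 0.16, -0.16 and -0.02 on arrays 1 to 4. The 5 genes outside the family nearest to it, by Euclidean distance over the 4 arrays, were GPI13, TGL4, POP6, EMW1 and MSS51, at distances from 0.07 to 0.11. The likeness rests on 4 values a gene. Of the members, MRP4, MRPL19 and MRPL51 overlap another annotated gene, YHL005C, YNL184C and YPR099C, and RNA of both genes cannot be told apart on their spots, since the strand of the probes was not given.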

How the data were processed

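The deposited table holds log2 ratios per spot for 4 2-colour arrays, a unit read from its values, which are signed and reach a ratio of 1e+05. How the arrays were scanned, background-corrected and normalized, and which way the ratio runs, is not given in the sources used here. The deposited medians were 0.31, 0.02, -0.46 and 0.37, so each array was centred on its median. Spots were named through the platform annotation (1662 spots without a symbol were left out), and spots of a gene were averaged per array. Genes valued on 3 or 4 arrays were fitted together with limma 3.58.1 in R 4.3.3 (lmFit, eBayes, two-sided, Benjamini-Hochberg over all genes, threshold 0.05), once for the mean and once with a channel term. SE and 95% intervals are limma's moderated ones. The fits were also run on simulated data with planted effects. How many of these were recovered is not given here, so the size of change the test could detect is not stated. No set test was run, and no correlation has a p.

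Groups, channels and array numbers came from the labels. The members and gene lists were chosen with earlier results of these data known; subunit classes are background knowledge, and MRP35 was added to them after the annotation was read. MRP10 and MRPL15 are not analysed here. Genes with full values were those with the highest and lowest means, the largest channel differences, and the smallest and largest SE. Other members stand as examples of their role or as genes whose arrays shared 1 sign. Genes of other lists had the smallest p, and MRX14 and RML2 were singled out after their values were seen. Alternatives were other centring, scaling and normalization, other filters, spot handling, robust eBayes, turned signs and each array left out.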

Additional observations from a re-analysis of the deposited data

Results flagged for a closer look

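Values of 5 members stood apart on 1 array, in each case array 2, by the gap of that value to its nearest neighbour relative to the whole range of 4 values. The check covered 62 sets of 4 values, and chance alone flags about 1 in 20 such sets. MRPL7 was at -2.75 on array 2, against 0.08 to 0.61 on the other arrays. MRPL10 was at -1.17, against -0.05 to 0.02. MRPL20 was at 0.33, against -0.18 to -0.17. MRPL27 was at 0.62, against -0.48 to -0.29, and MRPL50 was at 0.64, against 0.07 to 0.12. The second spot of MRPL10 and of MRPL50 gave the outlying value, at -2.20 and 1.07, while both spots of MRPL7, MRPL20 and MRPL27 were displaced. Array 2 also had the fewest spots with a value and the widest spot pairs, and the part of this in the 5 values was not tested.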

How the results depend on the processing

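No member passed in the test of Congo red over untreated, or in that of the channel difference, under any alternative run. The median of the members stayed below 0 throughout, from -0.11 to -0.03 with all 4 arrays in their direction and from -0.15 to -0.01 with each array left out. Leaving out arrays 1 to 4 changed the sign of 13, 8, 9 and 4 members. With the sign of arrays 2 and 4 turned it was -0.12, and 22 of 65 members changed sign. Over all genes, the 5 calls became 0 with a common median absolute deviation, with quantile normalization, with centring along the spot order, with turned signs, with a channel term and without any 1 array (0 to 0), and became 11 without spot pairs over 1 apart. Without centring the channel difference had 79 calls over all genes, where arrays keep their offsets, the members' median difference was -0.52, and 35 of 65 members were below 0 in the mean. The 13 members lower on arrays 1 and 3 at an unadjusted p under 0.05 became 0 without array 1, 6 without array 2, 0 without array 3, 20 without array 4 and 0 without centring. The Spearman's rho of length and channel difference over members ran from 0.39, without array 4, to 0.63. No paired analysis was possible because all 4 arrays form 1 group and each already holds both RNAs. Signal over background is unknown, which limits every spot value.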
